A study of Mus musculus with 4 samples.

Results

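The miR-143/145 entries are 5 of the 1152 entries listed in each deposited table of aortic small RNA: miR-143-3p, miR-143-5p, miR-145a-5p, miR-145a-3p and miR-145b. They were chosen by name, as the arms of the smooth muscle hairpins Mir143 and Mir145a together with the entry named after their relative Mir145b. The series profiled whole aortas of wild type C57BL/6 mice aged 12 weeks, a common inbred laboratory strain, in a model of vascular calcification driven by chronic kidney disease (CKD). The labels give 2 Sham and 2 CKD libraries, each made from RNA of 4 pooled samples. In the surgical protocol, the poles of the left kidney were cut away and the right kidney was taken out 1 week later. A diet with 2% phosphate and drinking water with 0.45% NaCl followed for 4 weeks. Both groups carry the same protocol text, and the handling of Sham mice is not described apart from it. No label says whether the pools of a group came from different animals, so p-values measure the spread between libraries, which may be technical.

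A microRNA (miRNA) hairpin is cut into a short duplex with a 5p and a 3p arm. An Argonaute protein usually keeps one arm, the guide, while the other arm is usually lost. miR-143 and miR-145 are made from neighbouring hairpins, thought to be cut from a shared primary transcript, and the genes are switched on by serum response factor and myocardin in smooth muscle. In arteries they are known for holding smooth muscle cells in the contractile state: miR-145 represses the Krüppel-like factors KLF4 and KLF5, and miR-143 represses ELK1, factors that favour the dividing, synthetic state.

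In GRCm38, GENCODE release M21 places Mir143 on the minus strand of chromosome 18 from 61649196 to 61649258, and Mir145a on the same strand from 61647825 to 61647894. Mir143 is the upstream hairpin, and 1301 bases separate the pair. Their host is drawn differently by different annotations. In RefSeq the long noncoding RNA gene Carmn runs from 61645878 to 61665538 and spans both hairpins. In GENCODE M21 Carmn runs from 61649625 to 61665537 on the minus strand and ends 367 bases upstream of Mir143, which leaves both hairpins outside any annotated gene. Mir145b lies on the same strand of chromosome 18 from 69022199 to 69022273, 7.37 megabases from Mir143. By position miR-145b is therefore not part of the cluster, although its name groups it there, and it is described below as a separate locus.

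Values are reads per 1000000 listed reads (CPM). Whole reads could be recovered from them, which gave totals between 16658810 and 17532748 reads per library. All 5 members had reads in every library and a mean above the minimum of 1 CPM used for testing, as did 479 of the 1152 entries. Different small RNAs are known to be captured unequally by adaptor ligation, so levels of different members are levels of reads.

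miR-143-3p was the most abundant entry in all 4 libraries, and it was far lower in CKD. It stood at 798183 and 725182 CPM in the Sham libraries and at 411359 and 407824 CPM in the CKD libraries. The groups did not overlap, and the CKD libraries lay close together while the Sham libraries were further apart. The mean in CKD was 0.538 of that in Sham. In whole tissue, fewer cells of a type and less RNA per cell cannot be told apart. As CPM are shares of reads, neither can be told apart from more RNA of other entries.

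miR-145a-5p, the guide of the neighbouring hairpin, was the second most abundant entry in all 4 libraries, and its deposited level went the other way, although it was lower in CKD on every other scale used. It stood at 33419 and 47242 CPM in Sham and at 67970 and 75726 CPM in CKD. Both CKD libraries were higher, with a mean 1.78 times that in Sham. The Sham libraries differed most from each other.

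The opposite arms of the cluster were minor products and were also higher in both CKD libraries on the deposited scale, although with other scalings miR-143-5p was lower. miR-143-5p, the arm opposite miR-143-3p, stood at 1272 and 1423 CPM in Sham and at 2619 and 2019 CPM in CKD. Its abundance rank lay between 37 and 47 across the libraries. miR-145a-3p, the arm opposite miR-145a-5p, stood at 821 and 1142 CPM in Sham and at 3665 and 3139 CPM in CKD. Its mean was 3.47 times as high in CKD, the largest ratio among the 4 arms of the cluster, and its rank lay between 40 and 43. On this scale the median difference of the tested entries was itself a 2.53-fold rise. With trimmed-mean scaling, described below, the mean of miR-145a-3p was 1.17 times as high in CKD (limma adjusted p = 0.29). The opposite arms changed order: miR-143-5p was above miR-145a-3p in both Sham libraries and below it in both CKD libraries.

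miR-145b was a rare entry: the Sham libraries had 3.14 and 5.87 CPM, the CKD libraries 23.6 and 19.0 CPM. These are 55, 99, 413 and 317 reads. The Wilson 95% intervals of the single libraries, which cover counting error only, ran from 2.41 to 4.09 and from 4.82 to 7.14 CPM in Sham, and from 21.4 to 25.9 and from 17.0 to 21.2 CPM in CKD. On the deposited scale the groups are separated by more than counting error, but 91.2% of tested entries were higher in both CKD libraries on it. With trimmed-mean scaling the libraries stood closer, at 6.56 and 8.44 CPM in Sham and at 13.0 and 11.5 CPM in CKD. Counting error was not set against that difference. How reads that match both miR-145b and miR-145a were shared out is not stated, so the level of miR-145b is uncertain.

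**Figure D1:**
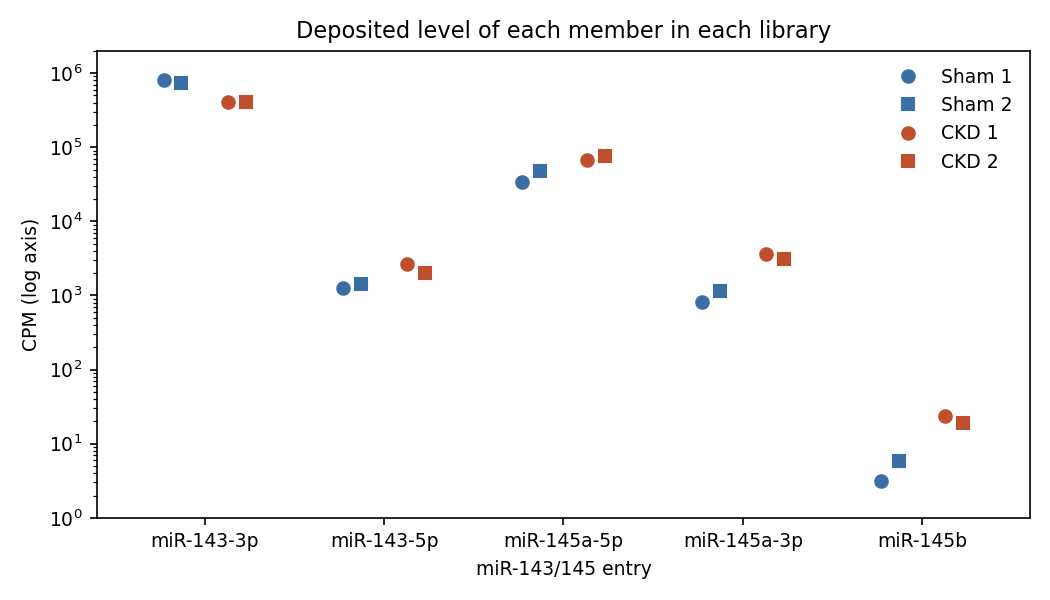
Deposited level (CPM, log axis) of each of the 5 members, with 1 point per library, blue for Sham and orange for CKD, circles for library 1 and squares for library 2. miR-143-3p is lower in both CKD libraries (411359 and 407824 CPM) than in both Sham libraries (798183 and 725182 CPM). The other 4 members are higher in both CKD libraries on this scale, as are 91.2% of the 479 tested entries. With trimmed-mean (TMM) scaling, which removes the shift shared by most entries, miR-143-5p and miR-145a-5p are lower. The log2 differences of miR-145a-3p and miR-145b are then 0.22 and 0.65, neither called (limma adjusted p = 0.29 and 0.10).

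Of all listed reads, the 4 arms of the cluster together made up 83.4% in Sham 1 and 77.5% in Sham 2, then 48.6% in CKD 1 and 48.9% in CKD 2. This is 80.4% ± 4.15 (SD, n = 2) against 48.7% ± 0.219 (SD, n = 2), a difference of -31.7 percentage points. Both miR-143 arms went from 76.3% ± 5.15 to 41.2% ± 0.292 (SD, n = 2), and both miR-145a arms from 4.13% ± 1.00 to 7.52% ± 0.511 (SD, n = 2). Of the 4 arms, only miR-143-3p had a smaller share of reads in each CKD library than in either Sham library.

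CPM values sum to a fixed total, so a smaller share of miR-143-3p raises the values of other entries. Across the 479 tested entries the median log2 difference, CKD minus Sham, of CPM + 1 was 1.34 on the deposited scale. It was 0.00 after trimmed-mean (TMM) scaling, which removes the shift shared by most entries, and 0.25 when the library totals were taken without miR-143-3p. limma with Benjamini-Hochberg adjustment called 83.9% of tested entries on the deposited scale (82.9% higher and 1.04% lower), 7.72% with TMM scaling (1.88% higher and 5.85% lower) and 5.86% with totals without miR-143-3p (3.14% higher and 2.72% lower). On the deposited scale 4 of the 5 members passed, 3 of them higher, a share near this background. On recovered reads edgeR called 6.47% (1.67% higher and 4.8% lower), miR-143-3p alone among the members. DESeq2 gave an adjusted p to only 377 of the entries and called 20.4% of these (7.43% higher and 13% lower). It called every member except miR-145b. Without any test, 91.2% of entries were higher, and 1.46% lower, in each CKD library than in either Sham library on the deposited scale. With TMM scaling these shares were 28% and 31.5%, and miR-143-3p, miR-143-5p and miR-145a-5p were among the lower while miR-145a-3p and miR-145b were among the higher. The members are therefore given on each scale.

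miR-143-3p fell on both the deposited and the TMM scale. Its deposited log2 difference was -0.89 (SE 0.11, limma adjusted p = 2.5e-04), the 6th lowest of the 479, and it was -2.48 with TMM scaling (SE 0.24, limma adjusted p = 0.012), the 4th lowest. Fitted without limma's variance trend, the deposited difference had a larger SE of 0.31 (limma adjusted p = 0.022). The deposited call was lost without CKD 1 or without CKD 2 (limma adjusted p = 0.078 and 0.13), at differences of -0.90 and -0.89. With TMM scaling it was lost without the same libraries (limma adjusted p = 0.19 for each), at -2.42 and -2.54.

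miR-145a-5p rose on the deposited scale but fell relative to most other miRNAs. Its deposited log2 difference was 0.85 (SE 0.22, limma adjusted p = 0.0043), against -0.73 with TMM scaling (SE 0.13, limma adjusted p = 0.044) and the same value by edgeR (edgeR adjusted p = 0.054). With median-of-ratios scaling it was -0.70 (limma adjusted p = 0.051). Counted among the reads that are not miR-143-3p, it went from 168747 ± 4462 to 121673 ± 8774 CPM (SD, n = 2), which is -0.47 on the log2 scale (SE 0.09, limma adjusted p = 0.040). The Sham libraries, which differed on the deposited scale, were nearly level on this one, at 165592 and 171902 CPM. The deposited call was lost without CKD 1 or CKD 2 (limma adjusted p = 0.14 and 0.24), at 0.93 and 0.77. The TMM call was lost whichever library was left out (limma adjusted p from 0.13 to 0.21), at differences between -0.87 and -0.59.

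miR-143-5p had nearly the same differences as miR-145a-5p and did not pass by limma on any of the 3 scales, although DESeq2 called it at -0.79 (DESeq2 adjusted p = 6.6e-04). By limma they were 0.77 deposited (SE 0.36, limma adjusted p = 0.063), -0.81 with TMM scaling (SE 0.18, limma adjusted p = 0.080) and -0.55 among reads other than miR-143-3p (SE 0.19, limma adjusted p = 0.13). On the deposited scale miR-145a-3p rose, by log2 1.81 (SE 0.37, limma adjusted p = 0.0018). It stood at 0.22 with TMM scaling (SE 0.11, limma adjusted p = 0.29) and 0.48 without miR-143-3p (limma adjusted p = 0.11). Its deposited call was lost without CKD 1 (limma adjusted p = 0.086), at 1.70. The deposited difference of miR-145b was 2.06 (SE 0.33, limma adjusted p = 9.5e-04). It stood at 0.65 with TMM scaling (limma adjusted p = 0.10) and at 0.94 without miR-143-3p (limma adjusted p = 0.074). Without a replicate block, limma with TMM scaling thus called both guides of the cluster lower, where it called 5.85% of entries lower. It called neither opposite arm, although miR-143-5p fell by more than the called miR-145a-5p (-0.81 against -0.73). DESeq2 called both opposite arms, miR-143-5p lower and miR-145a-3p higher, the latter at 0.26 (DESeq2 adjusted p = 0.042). The calls therefore do not separate the guides from the opposite arms.

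**Figure D2:**
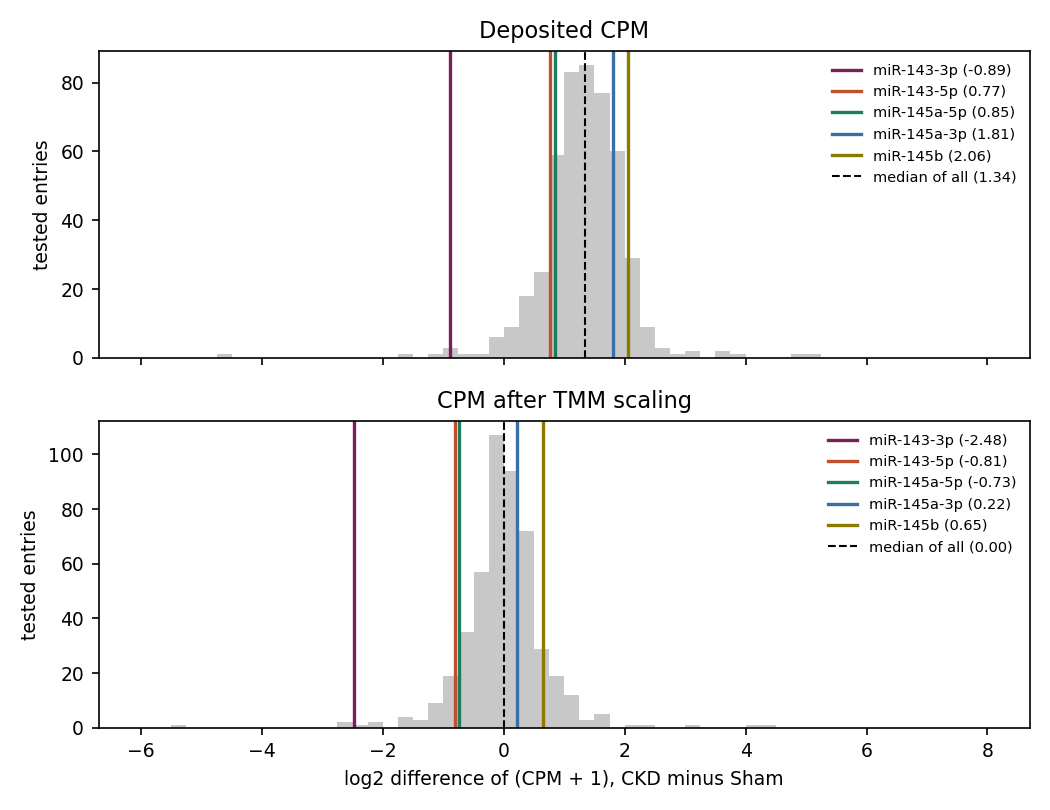
Histograms of the log2 difference of CPM + 1, CKD minus Sham, for the 479 tested entries, on the deposited scale (top) and after TMM scaling (bottom), with coloured lines for the 5 members and a dashed line for the median. On the deposited scale miR-143-3p stands at -0.89 and the other members at 0.77 to 2.06 around a median of 1.34; after scaling the order of the members is unchanged and the median is 0.00.

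Ratios taken within a library do not depend on its total, so the arms were compared directly. In the tests below 1 CPM was added to each entry, so ratios with a rare entry still depend on the scale. miR-143-3p exceeded miR-143-5p 627-fold in Sham 1 and 509-fold in Sham 2, but 157-fold in CKD 1 and 202-fold in CKD 2. The groups did not overlap: the ratio was lower in both CKD libraries. Such a lack of overlap, in either direction, held for 70% of the arm ratios of all hairpins tested. Seen from the minor arm, miR-143-5p made up 0.159% and 0.196% of the reads of its hairpin in Sham and 0.633% and 0.493% in CKD. The widest of the 4 Wilson 95% intervals, that of CKD 1, ran from 0.627% to 0.638%, so counting error was small beside the difference between groups.

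miR-145a shifted in the same sense, toward its minor arm. miR-145a-5p exceeded miR-145a-3p 40.7-fold in Sham 1 and 41.4-fold in Sham 2, but 18.5-fold in CKD 1 and 24.1-fold in CKD 2. The Sham ratios were almost equal, and both CKD ratios were lower. miR-145a-3p accordingly made up 2.38% ± 0.0263 (SD, n = 2) of the reads of its hairpin in Sham and 4.55% ± 0.803 (SD, n = 2) in CKD.

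Tested beside every hairpin with both arms at a mean of at least 1 CPM, both shifts passed. The log2 ratio of 3p over 5p of miR-143 changed by -1.67 (SE 0.21, limma adjusted p = 0.0083), and the log2 ratio of 5p over 3p of miR-145a by -0.96 (SE 0.19, limma adjusted p = 0.025). Of the 130 hairpins tested, 24.6% were called in either direction, 7.69% with 3p over 5p higher and 16.9% with it lower. The number of hairpins called depended on the pseudocount: 32 with 1 CPM, 20 with 0.1 and 80 with 10. Both calls were lost without Sham 1 or without Sham 2: limma adjusted p = 0.11 and 0.072 for miR-143, at -1.52 and -1.82, and 0.15 and 0.12 for miR-145a, at -0.97 and -0.94. With 2 libraries a group, an exact permutation test of a single ratio cannot go below p = 0.333, and it gave this value for both.

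Ordered by the change of the stronger over the weaker arm, miR-143 was the lowest of the 130 hairpins and miR-145a the second lowest. Next came miR-140 at -0.78 and miR-22 at -0.71. By size alone, 4 of the 130 changes, that of miR-143 included, were at least as large as that of miR-143, and 19 at least as large as that of miR-145a. The change was above 0 in 96 of the 130 hairpins, with a median of 0.31, a value that depends on the pseudocount of 1 CPM. With a pseudocount of 0.1 the median was 0.11, miR-143 was again lowest and miR-145a was at rank 3. Among the 55 hairpins whose arms both averaged at least 10 CPM, 18 were below 0, the median was 0.12, and miR-143 and miR-145a again held the lowest places.

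The ratio of the cluster mates also fell. miR-143-3p exceeded miR-145a-5p 23.9-fold in Sham 1 and 15.4-fold in Sham 2, but 6.05-fold in CKD 1 and 5.39-fold in CKD 2. Every CKD value was under every Sham value, and the CKD libraries were nearly equal. A lack of overlap, in either direction, held for 69% of the ratios of neighbouring hairpins. On the log2 scale the ratio went from 4.26 ± 0.451 to 2.51 ± 0.119 (SD, n = 2), a 3.35-fold decrease.

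This was the largest change among the neighbouring miRNA hairpins tested. Across 116 pairs of hairpins on the same strand with starts at most 10000 bases apart, each represented by its most abundant entry, the median size of the change was 0.35. The pair miR-143-3p over miR-145a-5p changed by -1.75 (SE 0.25, limma adjusted p = 0.031) and was first in size. limma called 13.8% of the pairs, 5.17% higher and 8.62% lower. In the order from the lowest change upward, next were miR-20b-5p over miR-19b-3p at -1.55 (limma adjusted p = 0.18), whose weaker entry averaged 2.73 CPM, and miR-666-5p over miR-543-3p at -1.23 (limma adjusted p = 0.041). By size, miR-300-3p over miR-381-3p at 1.51 and miR-337-5p over miR-540-3p at 1.28, both higher in CKD and named after their values were seen, stood before miR-666-5p over miR-543-3p (limma adjusted p = 0.031 for each). Some of these entries can come from more than one hairpin, so their pairs are not all true neighbours. The miR-143 to miR-145a call held without each library in turn (limma adjusted p from 0.0031 to 0.037), at -2.06 to -1.43. Summing both arms of each hairpin gave -1.77 (limma adjusted p = 0.019).

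**Figure D3:**
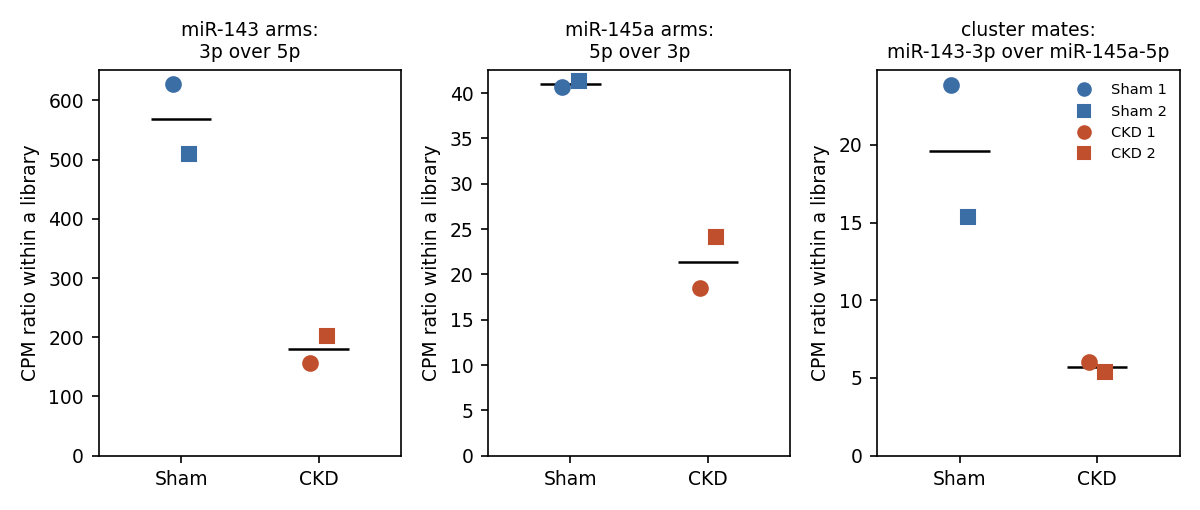
Ratio of CPM within each library, on linear axes from 0, for the arms of miR-143, the arms of miR-145a and the cluster mates, with 1 point per library and a bar at the group mean. All 3 ratios are lower in both CKD libraries. The groups also do not overlap, in either direction, for 70% of the arm ratios of all hairpins and 69% of the ratios of neighbouring hairpins. miR-143-3p over miR-145a-5p is 23.9 and 15.4 in Sham against 6.05 and 5.39 in CKD.

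**Figure D4:**
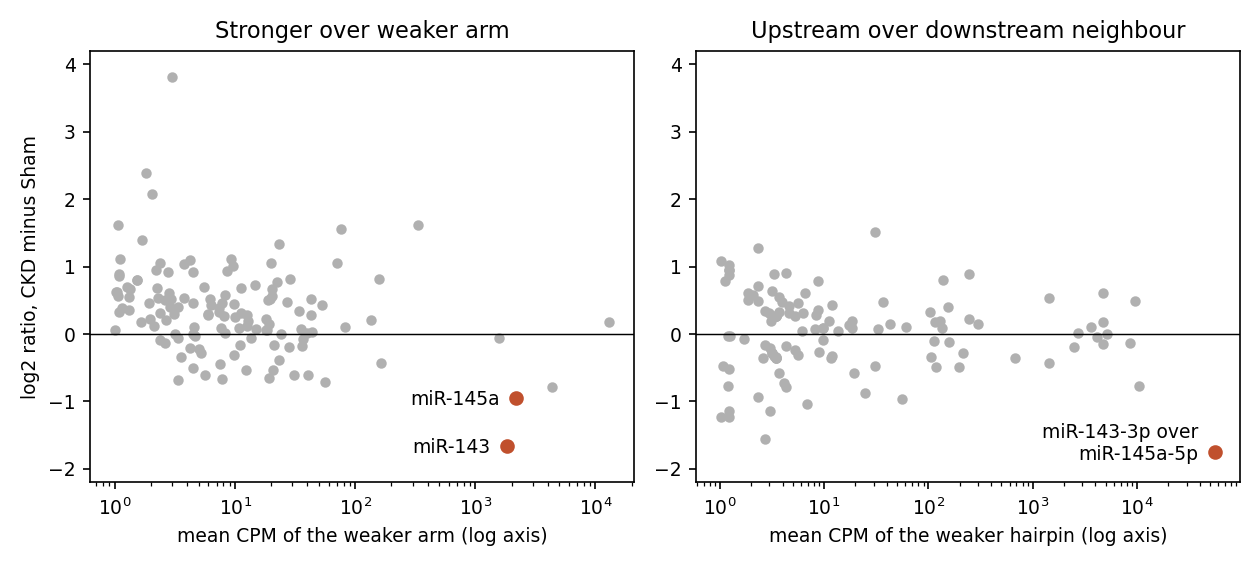
Change of a within-library log2 ratio, CKD minus Sham, against the mean CPM of its weaker partner (log axis), for 130 hairpins as stronger over weaker arm (left) and 116 pairs of neighbouring hairpins as upstream over downstream (right). Orange points mark miR-143 (-1.67) and miR-145a (-0.96) on the left and miR-143-3p over miR-145a-5p (-1.75) on the right, the lowest points of their panels.

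All 10 ratios among the 5 members were computed, and 9 of them had no overlap between the groups (exact permutation p = 0.333 for each, 0.37 adjusted over the 10). Lack of overlap was common: it held for 70% of the arm ratios of all hairpins and 69% of the ratios of neighbouring hairpins, and the 10 ratios share members, so they are not separate results. The exception was miR-143-5p over miR-145a-5p: 0.0381 and 0.0301 in Sham against 0.0385 and 0.0267 in CKD. Its log2 change was -0.08, within the spread between libraries (SD 0.24 in Sham and 0.38 in CKD, n = 2). The minor arm of miR-143 thus had no detectable change against the major arm of miR-145a, and 2 libraries a group cannot show that there was none. miR-143-5p over miR-145a-3p went from 1.55 and 1.25 to 0.715 and 0.643, a log2 change of -1.04. miR-143-3p over miR-145a-3p, the ratio with the largest change within the cluster, went from 973 and 635 to 112 and 130.

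The distant relative miR-145b was set against each miR-145a arm. There were 261 and 194 reads of miR-145a-3p for each read of miR-145b in Sham, and 156 and 165 in CKD, a log2 change of -0.25 on CPM + 1. For miR-145a-5p the figures were 10643 and 8048 in Sham and 2885 and 3979 in CKD, a log2 change of -1.20. Both depend on the pseudocount because miR-145b is rare: with 10 CPM in place of 1 they were 0.69, in the opposite direction, and -0.26.

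Among the 264 other entries with a mean of at least 10 CPM, the one whose profile over the 4 libraries was most like that of miR-143-3p was Novel_47, an entry with no miRNA name. The root mean square difference of their centred log2 profiles was 0.03. miR-143-3p exceeded Novel_47 by 2454-fold and 2524-fold in Sham and by 2623-fold and 2498-fold in CKD, so the highest and lowest ratios were close together. miR-5099 came next (0.15) and then let-7i-3p (0.34). By the same measure miR-143-5p stood at 0.85 from miR-143-3p, and miR-145a-3p at 1.37. The profile of miR-145a-5p was most like that of let-7i-5p (0.03), a member of the let-7 family of proliferation repressors, and then of miR-30a-3p (0.06) and miR-181d-5p (0.07). miR-145a-5p exceeded let-7i-5p 10.9-fold and 11.4-fold in Sham and 11.6-fold and 11.4-fold in CKD. These are descriptions over 4 libraries, which also share each library's scale.

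Other miRNAs of smooth muscle state were read against the same backgrounds. Of 7 miRNAs known to favour the contractile state or to be driven by serum response factor, 6 passed by limma as higher in the deposited values, where 82.9% of all entries did, and the median log2 difference of the 7 was 1.14 against 1.34 for all entries. With TMM scaling none passed by limma or edgeR, 5 lay below 0 and the median was -0.44. DESeq2 called 2 of the list lower, miR-133a-3p and miR-22-3p, where it called 13% of its 377 entries lower. The most abundant members of the list, miR-10a-5p and miR-22-3p, stood at -0.44 and -0.46 with TMM scaling (limma adjusted p = 0.23 and 0.085). Of the list, miR-1a-3p, miR-133a-3p and miR-133b-3p are also markers of striated muscle. Of 7 miRNAs known to favour the synthetic state, all 7 passed by limma as higher in the deposited values, again beside 82.9% of all entries, and their median was 1.84. With TMM scaling miR-221-3p passed by limma, at 0.76, where 1.88% of entries were called higher, and the median was 0.25. Its most abundant members, miR-26a-5p and miR-24-3p, stood at -0.09 and 0.25. DESeq2 called 3 of this list higher, miR-221-3p, miR-222-3p and miR-21a-5p, beside 7.43% of its 377 entries.

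Defining miRNAs of other cell types were also at other levels in the CKD libraries. Of 26 such entries in 7 lists, 23 reached the mean of 1 CPM and were tested. Of all 26, 21 were higher in both CKD libraries on the deposited scale, where 91.2% of the tested entries were. That share leaves out entries under 1 CPM, so the 2 sets differ. limma called none of the 23 with TMM scaling. The summed endothelial markers (2 of 2 listed) lay between 2899 and 3411 CPM in Sham and between 9767 and 9989 CPM in CKD. The 4 red cell markers summed to 219 and 841 CPM in Sham and to 1035 and 4804 CPM in CKD, the 5 leukocyte markers to 82.2 and 229 and then 424 and 474 CPM. The 7 striated muscle markers summed to 533 and 651 CPM in Sham, against 1287 and 1026 CPM in CKD. Hepatocyte miR-122-5p was at 1.43 and 25.5 CPM in Sham, against 161 and 56.0 CPM in CKD, and the epithelial and neuronal sums lay between 25.4 and 142 CPM in all libraries. None of the 26 was at 0 in all libraries. All 7 sums are small beside the 485612 to 833695 CPM of the 4 cluster arms, and their part in the miR-143/145 results was not tested.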

How the data were processed

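Small RNA of 18 to 30 nucleotides from aorta was sequenced in 2 Sham and 2 CKD libraries. Per the submitters' processing notes, reads were handled with Bowtie and GRCm38. The annotation used and the treatment of reads matching several miRNAs are not stated. The deposited values sum to about 1000000 in each library and were read as CPM. In 3 of the 4 tables the names stand above the values, and both were paired by order. In each library 100% of the values above 0 were whole multiples of 1 read within 0.005 CPM. The totals were 17520690 and 16878392 reads in Sham, and 17532748 and 16658810 in CKD.

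limma 3.58.1 (R 4.3.3, with a variance trend) was applied to log2(CPM + 1) of 479 entries that averaged 1 CPM or more, with Benjamini-Hochberg adjustment and a threshold of 0.05. Within-library log2 ratios, also with a pseudocount of 1, were fitted by limma without the trend over 130 hairpins and over 116 neighbouring pairs, with hairpin positions from GENCODE M21. TMM factors of 0.479 and 0.696 in Sham and 1.81 and 1.66 in CKD were taken from the recovered reads. Other settings were upper-quartile and median-of-ratios scaling, totals without miR-143-3p, other filters, pseudocounts and variance trends, the replicate number as a block, each library left out, hairpin sums, a distance of 50000 bases, edgeR 4.0.16 (31 entries called on recovered reads) and DESeq2 1.42.0. The fits were tested on simulated data in which miR-143-3p was given no change, so the effect of its lower share was not tested there. Libraries of 1 group were not the same library deposited again (chi-square over degrees of freedom 579 for Sham and 499 for CKD), so none was counted as a duplicate. The members, lists and tests were chosen with earlier results of these data known. Named beside the members were the 3 entries nearest in profile to miR-143-3p and to miR-145a-5p, the ratios next to the members' in each ordered list, and, of each smooth muscle list, the 2 most abundant members and those called on both scales.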

Additional observations from a re-analysis of the deposited data

How the results depend on the processing

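With 2 pooled libraries a group, limma's p-values borrow most of their precision from other entries. The direction of miR-143-5p and miR-145a-5p depended on the scaling. On the deposited and TMM scales, miR-143-3p, miR-143-5p and miR-145a-5p lay below the median of tested entries, and miR-145a-3p and miR-145b above it. The direction of miR-143-3p, of both arm ratios and of miR-143-3p over miR-145a-5p held under every setting run. The miR-143-3p over miR-145a-5p ratio was called under every setting run, and both arm ratios under every setting except leaving out Sham 1 or Sham 2.

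Scaling turned the direction of miR-143-5p and miR-145a-5p and, by limma and edgeR, ended the deposited calls of miR-145a-3p and miR-145b. In the order miR-143-5p, miR-145a-5p, miR-145a-3p and miR-145b, the log2 differences were -0.81, -0.73, 0.22 and 0.65 with TMM factors. They were -0.91, -0.83, 0.13 and 0.56 with upper-quartile scaling, and -0.78, -0.70 (limma adjusted p = 0.051, no longer called), 0.26 and 0.68 with median-of-ratios scaling. With totals without miR-143-3p they were -0.55, -0.47, 0.48 and 0.94, and by edgeR -0.82, -0.73 (adjusted p = 0.054), 0.22 and 0.70. DESeq2 gave -0.79, -0.69, 0.26 and 0.74, with miR-145a-3p still called (DESeq2 adjusted p = 0.042). The miR-145a-5p call was lost without a filter on low values (0.85, limma adjusted p = 0.079). miR-143-5p, at 0.77, passed with a mean CPM of at least 10 (limma adjusted p = 0.043) and without the variance trend (limma adjusted p = 0.045). The miR-145a-3p over miR-145b ratio turned to 0.69 with a pseudocount of 10, and was -0.47 with 0.1. With 10, the ratios of miR-143-3p, miR-143-5p and miR-145a-5p over miR-145b were -2.01, -0.34 and -0.26.

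The libraries share only a replicate number: deviations of same-numbered libraries correlated at 0.10 on the deposited scale and 0.12 on the TMM scale, with only 2 pairs. With the replicate block the deposited differences were -0.89, 0.77, 0.85, 1.81 and 2.06 with no change of call, and the 3 tested ratios passed. With the replicate block and TMM factors, miR-143-3p was at -2.48 (limma adjusted p = 0.063), miR-143-5p at -0.81, and miR-145a-5p at -0.73. miR-145a-3p stood at 0.22, and 0.65 was the value for miR-145b; limma called none of these 5, so the TMM calls of miR-143-3p and miR-145a-5p (limma adjusted p = 0.12 with the block) were lost.

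Leaving out each library gave deposited ranges of -0.96 to -0.82 for miR-143-3p, 0.59 to 0.96 for miR-143-5p (called without Sham 2 only), 0.60 to 1.10 for miR-145a-5p, 1.57 to 2.05 for miR-145a-3p and 1.69 to 2.42 for miR-145b. With TMM factors the ranges were -2.82 to -2.14, -1.001 to -0.62, -0.87 to -0.59, 0.17 to 0.27 and 0.49 to 0.81. Between these ends lay -2.42 and -2.54 for miR-143-3p without CKD 1 and CKD 2, -0.94 and -0.69 for miR-143-5p without the same libraries, and -0.71 and -0.75 for miR-145a-5p without Sham 1 and Sham 2. miR-145a-3p was at 0.25 without Sham 1 and 0.19 without Sham 2, and miR-145b at 0.56 without CKD 1 and 0.73 without CKD 2. The arm ratios ranged from -1.85 to -1.48 for miR-143 and from -1.15 to -0.77 for miR-145a, and the cluster mate ratio from -2.06 to -1.43. miR-143-5p over miR-145a-5p ranged from -0.35 to 0.19, so its sign is not settled.

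Background counts varied widely. Entries called higher numbered 397 as reported and from 2 to 407 over all settings, and entries called lower 5 and from 0 to 49. The 32 called arm ratios ranged from 0 to 80, and the 16 called neighbouring pairs from 4 to 41.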
